A study of Hordeum vulgare with 4 samples.

Results

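Intronless loci of the barley nuclear genome were examined in leaf RNA of plants that overexpress HvHSFA6a and of wild type. A locus was taken as intronless when it held exactly 1 transcript in the deposited table, carried a HORVU gene model name, lay on chromosomes 1H to 7H or on unplaced sequence (Un), and had a transcript as long as its genomic interval. This rule found 1483 loci among 17771, or 26.0% of the 5695 single-transcript HORVU loci. The other 4212 single-transcript HORVU loci, whose transcript was shorter than their interval, served for comparison and are called intron-bearing here. The rule used no expression level, although the table lists only transcripts above 0 in at least 1 group, so that a locus with 1 row may have further transcripts not listed.

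The cultivar was Golden Promise, and each group had 2 samples of leaves of 3 weeks. The transgenic group constitutively expressed HvHSFA6a, a barley heat stress transcription factor, and the wild type was not transformed. For both, the protocols give day and night temperatures of 18 and 16 °C under a 16 h photoperiod, and also name a chamber at 34 °C. The labels give 42 °C for 30 minutes to the transgenic samples and call the wild type a control, so that genotype and labelled heat cannot be told apart. The transgenic samples carry different codes, and whether they are 1 line or several is not given. The table holds 1 whole-number FPKM value per group (fragments scaled to transcript length and to library size), so no value below has a replicate error, the groups cannot be checked for overlap, and the depth is unknown. Directions follow the column headers. Of the intronless loci in the authors' deposited table, 145 (9.78%, against 2.45% of all transcripts) were marked as up-regulated (43) or down-regulated (102), and each of these marks was opposite to the headers. Of leaf marker transcripts, rbcL, for the large Rubisco subunit, had 123 FPKM in transgenic and 190 in wild-type leaves, and psbA, for a core protein of photosystem II, had 94 and 65. The name HvHSFA6a was found in no row, so the overexpressed gene is not analysed here. In whole leaves, fewer cells of a type and less RNA per cell cannot be told apart.

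Heat stress transcription factors bind heat shock elements in promoters and activate genes of chaperones and other protective proteins. Most plant genes carry introns, which are spliced from the transcript before its export, and a minority have a single exon and need no splicing. In plants, families with many single-exon members include small heat shock proteins of the cytosol, pentatricopeptide repeat proteins of organelle RNA metabolism, small auxin-up RNAs and AP2/ERF transcription factors. Genes that respond rapidly to stress are known to have few introns in several eukaryotes. The table pairs none of the 1483 gene models with a product, and none of their names is in the gene table of the newer MorexV3 assembly, so no locus below is given a function or a family. For that reason loci are given by position, and only the first 2 that rose and the first 2 that fell by name. Positions are those of the deposited table, counted from 1, whose genome build is not stated in the sources used.

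Like the intron-bearing loci and all transcripts, with medians of 2 FPKM in both groups, intronless loci were low in level. They were somewhat higher in the transgenic group. Their median was 3 FPKM in the transgenic group (quartiles 1 and 10) and 2 FPKM in wild type (quartiles 1 and 8). In 603 of them neither group exceeded 2 FPKM, or 40.7%, against 49.8% of all 51141 transcripts. Summed, they held 34327 FPKM in transgenic and 30159 in wild-type leaves, which was 3.62% and 3.20% of the columns' totals. In the transgenic group 57 loci reached 100 FPKM, and in wild type 45 did. Their transcripts were 126 to 12353 nt long, with a median of 1152 nt.

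The comparison asked which loci differed between transgenic and wild-type leaves. Of the 1483 intronless loci 357 passed, or 24.1%, against a background of 4.27% for all transcripts and 9.78% for the intron-bearing loci (412 of 4212). The test was the authors' p-value of each transcript, adjusted by the Benjamini-Hochberg method over the whole table, with a threshold of 0.05. A total of 262 intronless loci rose in the transgenic group and 95 fell, so that 73.4% of the calls were higher. Over all transcripts 2.7% were called higher and 1.58% lower, and 63.1% of calls were higher. Among the intron-bearing loci 262 rose and 150 fell, or 63.6% higher. Of the intronless loci 232, or 15.6%, held 5e-05, the smallest p-value in the authors' deposited table, against 2.26% of all transcripts. Without adjustment 658 of them, or 44.4%, had a p under 0.05, against 10.9% of all transcripts. No test of the difference between the sets was made, since loci are not replicates, and the shares are descriptions of these libraries.

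**Figure D1:**
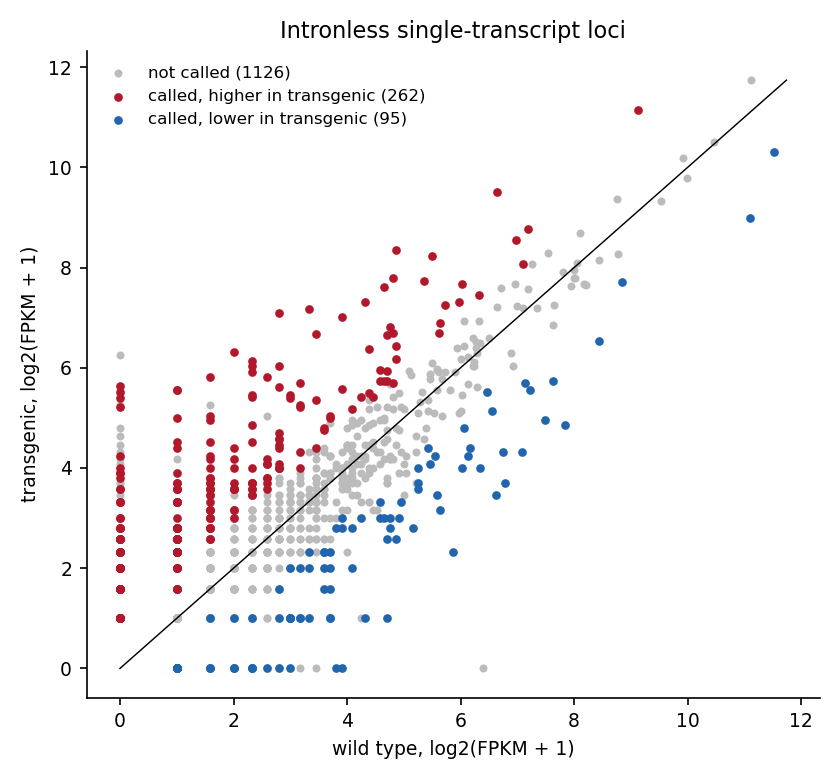
Each point is 1 intronless locus, with its wild-type value on the x axis and its transgenic value on the y axis, both as log2(FPKM + 1), and the line marks equal values. The 262 loci called higher in the transgenic group lie above the line and the 95 called lower lie under it, and many loci share a point because the values are whole numbers.

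Taken without regard to p, the change leaned the same way. Of the intronless loci 773 were higher in the transgenic group, 500 were lower and 210 had equal values. Among all transcripts 40.3% were higher and 45.0% lower, and among the intron-bearing loci 43.8% and 40.3%. The median change of log2(FPKM + 1), transgenic minus wild type, was 0.17 for the intronless loci and 0 for both the intron-bearing loci and all transcripts. For the 1035 intronless loci above 0 in both groups the median was 0 as well. Rounding to whole numbers makes these medians coarse.

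The sets differ in level, so they were compared within 7 classes of the mean of both group values. Intronless loci were called more often in every class. Under 1 FPKM, where 1 group is listed at 0 and the other at 1, 16.0% of 294 intronless loci were called against 4.49% of 1203 intron-bearing ones. From 5 to under 10 FPKM the shares were 31.9% of 226 and 14.8% of 453, and from 30 to under 100 FPKM they were 45.5% of 99 and 17.8% of 269. At 100 FPKM or more they were 42.0% of 50 and 17.9% of 112. When the intron-bearing loci were weighted to the level classes of the intronless loci, 10.8% of them were called, so that the intronless share was 2.23 times as high. The weighted share of intron-bearing calls that were higher in the transgenic group was 63.2%.

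**Figure D2:**
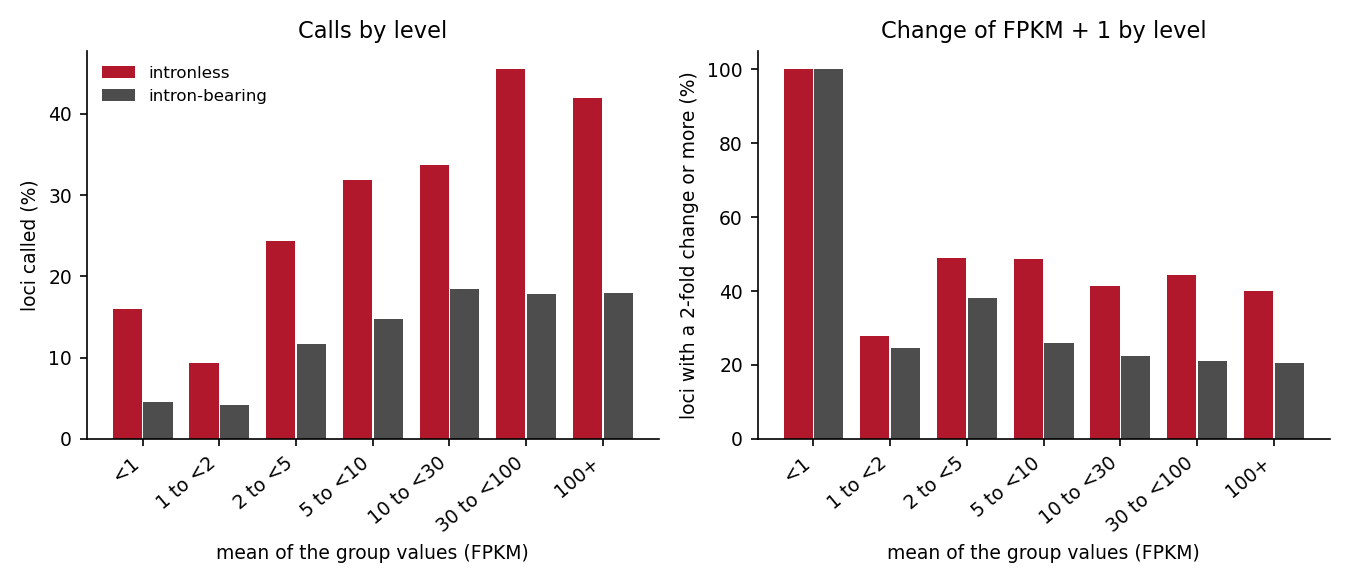
Bars give the percent of loci called (left) and the percent whose FPKM + 1 differed 2-fold or more between the groups (right) in 7 classes of mean level, for intronless (red) and intron-bearing (grey) loci. The red bar is the higher one in each class of calls, as with 45.5% against 17.8% from 30 to under 100 FPKM, and in the right panel both sets stand at 100% under 1 FPKM, where a 0 and a 1 always differ 2-fold.

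The sizes of the changes differed as well, apart from any p-value. Among loci with a mean of 5 FPKM or more, 44.7% of 580 intronless loci differed 2-fold or more in FPKM + 1, against 23.3% of 1358 intron-bearing ones and 32.6% of all transcripts at that level. The median absolute change of log2(FPKM + 1) was 0.85 and 0.49 in these sets. The upper side held most of this. The 90th percentile of the change was 2.74 for intronless loci and 1.11 for intron-bearing ones, while the 10th percentile was -1.29 and -1. Rises of 3 or more on this scale were found in 51 intronless loci (8.79%) and 29 intron-bearing ones (2.14%), and falls of that size in 10 (1.72%) and 18 (1.33%). Where the change was 2-fold or more at this level, 77.2% of the intronless and 69.9% of the intron-bearing loci were called. From 2 to under 5 FPKM these shares were 49.7% and 30.0%. Over all levels 53.1% of intronless and 48.1% of intron-bearing loci differed 2-fold or more, and 43.9% and 19.4% of those were called. Over all loci the sets thus differed more in the share of such changes called than in the share that changed. However, each locus listed at 0 in 1 group counts as a 2-fold change. Such loci were 289 (wild type) and 159 (transgenic) of the 1483 intronless loci, and 866 and 642 of the 4212 intron-bearing ones. At 5 FPKM or more, where few loci were listed at 0, the shares that changed were further apart than the shares of those called. The reasons were not tested.

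**Figure D3:**
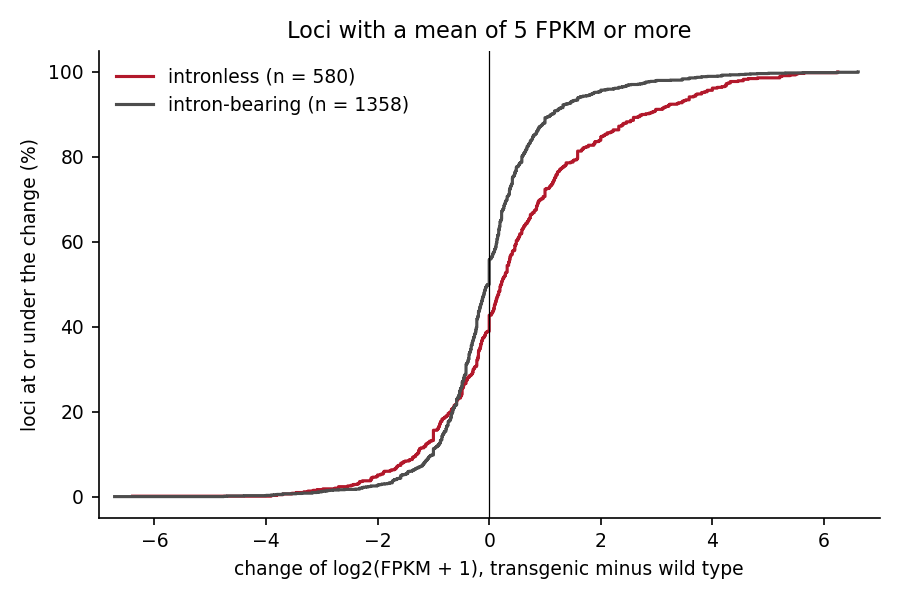
The curves give the percent of loci at or under each change of log2(FPKM + 1), transgenic minus wild type, for the 580 intronless (red) and 1358 intron-bearing (grey) loci with a mean of 5 FPKM or more. The red curve runs under the grey one on the side of the rises, with medians of 0.21 and -0.01.

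Features of the table other than introns also separate the sets, and their part in the difference was not tested. For 1474 of the 1483 intronless loci the nearest reference transcript was the first model of its gene, against 2203 of the 4212 intron-bearing loci, so many of the latter stand for 1 of several known transcripts. The interval is shared with another locus in 780 intron-bearing loci, 306 of them not first models, and may there be longer than the gene, so that intronless genes in shared intervals can be missed. Of the intronless loci 10 share their interval. Without the 2483 loci of either kind, 13.8% of the remaining 1729 were called, or 13.0% when weighted to the intronless levels. Among the 810 of these with a mean of 5 FPKM or more, 19.9% differed 2-fold or more and 17.3% were called. Of those that differed 2-fold or more 82.6% were called, a share above the 77.2% of the intronless loci. The share called also fell with the number of transcripts of a locus in the table, from 13.5% of transcripts in single-transcript HORVU loci to 6.64% where a locus has 2 and 1.57% where it has 6 to 10.

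The share called was lower the more intron bases a locus held. Among the 3432 intron-bearing loci with an interval of their own, 16.9% were called where the interval exceeded the transcript by up to 200 bases. The share was 13.3% up to 1000 bases, 11.0% up to 3000, 7.56% up to 10000 and 6.23% beyond. Just outside the rule, 41 of these loci had a transcript of at least 95% of the interval, and 6 of them, or 14.6%, were called. Changes of 2-fold or more in FPKM + 1, which include every locus listed at 0 in 1 group, did not follow the order of the calls. From the fewest to the most intron bases, they were found in 58.0%, 52.1%, 42.6%, 47.0% and 56.8% of loci. Of these changes 28.6%, 24.8%, 24.0%, 15.0% and 11.0% were called. Rises made up 62.3%, 67.3%, 68.2%, 47.5% and 37.5% of the called loci. The classes were not matched on level or limited to first models.

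Calls among intronless loci were concentrated in transcripts of 600 nt or more. Under 300 nt, 3 of 108 were called (2.78%), and from 300 to under 600 nt 22 of 212 (10.4%). The share was 30.7% of 479 loci from 600 to under 1200 nt and 27.1% of 573 from 1200 to under 2400 nt. Of the calls at 600 nt or more, 248 were higher in the transgenic group and 84 lower, while under 600 nt 14 were higher and 11 lower. The intron-bearing calls divided into 239 and 130 from 600 nt on and into 23 and 20 under it, so that the balance was closer in short transcripts of both sets. Intron-bearing loci showed a smaller range of the share called, from 2.36% under 300 nt to 11.8% from 1200 to under 2400 nt. Changes of 2-fold or more in FPKM + 1 were not fewer in short intronless transcripts. Such changes were found in 64.8% under 300 nt and 51.9% from 300 to under 600 nt, against 57.8% and 49.4% in the next 2 classes. Of these changes 4.29%, 19.1%, 52.7% and 52.7% were called. However, each locus listed at 0 in 1 group counts as such a change, and these zeros were most frequent under 300 nt. Transgenic zeros made up 26.9%, 15.6%, 9.39% and 7.33% of these classes, and wild-type zeros 23.1%, 19.3%, 20.9% and 17.8%. Whether changes among loci above 0 on both sides differ by length was not tested.

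**Figure D4:**
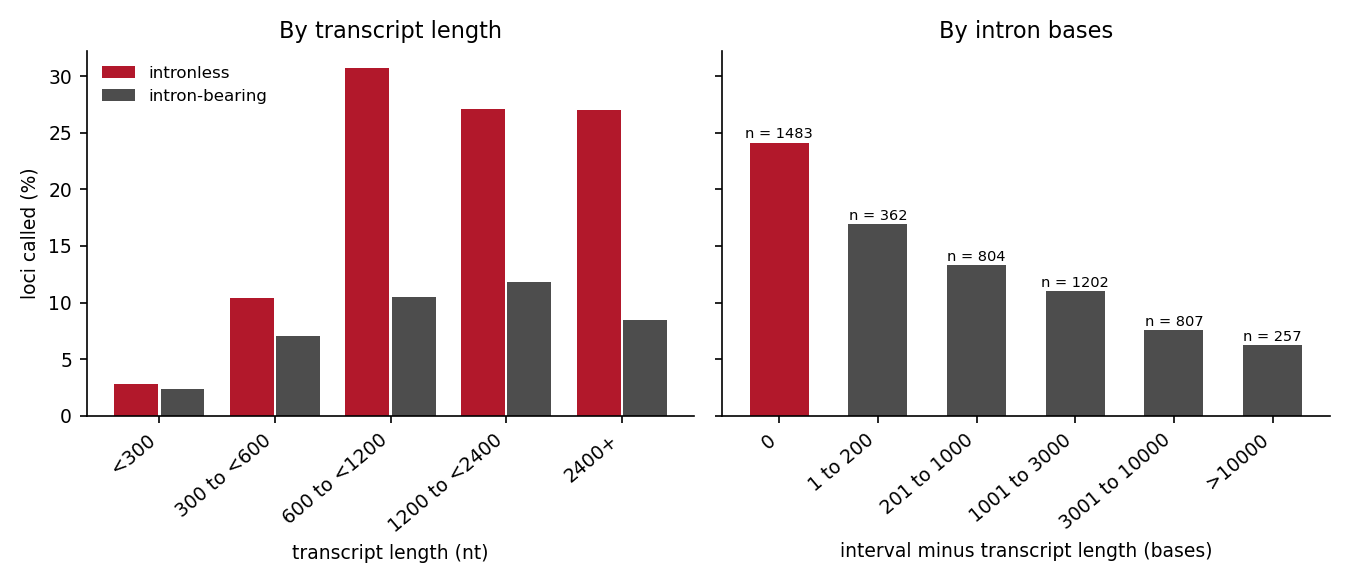
Bars give the percent of loci called by transcript length in nt for intronless (red) and intron-bearing (grey) loci (left), and by the bases by which the interval exceeds the transcript (right), with intronless loci at 0 and intron-bearing loci with an interval of their own in the other bars. The sets are close under 300 nt (2.78% and 2.36%) and apart from 600 nt on, and the bars on the right step down from 24.1% to 6.23%.

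The largest rises among called loci above 0 in both groups started from 9 FPKM or less in wild type. HORVU3Hr1G108630, on 3H from 675884796 to 675886125, had 46 FPKM in transgenic leaves against 1 in wild type. This is a 46-fold rise, and rounding allows 30.3-fold to 93-fold. HORVU5Hr1G109290, on 5H from 629497514 to 629498768, had the same values. Both held an adjusted p of 0.00221, the lowest the Benjamini-Hochberg method gave, and the other loci of these rankings held it too. The next 6 rose between 16-fold and 31-fold, with transgenic values of 31 to 144 FPKM and wild-type values of 1 to 9. They lay on 4H, 5H (3 loci) and 7H (2 loci), and the one with the highest transgenic value, on 7H from 622636216 to 622637095, had 144 and 9 FPKM. Over the 176 called rises with a value above 0 in both groups the median was 4-fold (quartiles 2.96 and 6.70), and 27 exceeded 10-fold.

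The largest falls among such loci, ranked like the rises by the change of log2(FPKM + 1), were smaller than the largest rises. HORVU6Hr1G019760, on 6H from 54155745 to 54156786, had 1 FPKM in transgenic leaves against 25 in wild type, a 25-fold fall for which rounding allows 16.3-fold to 51-fold. HORVU5Hr1G056040, on 5H from 438403126 to 438404116, had 4 and 57 FPKM, a 14.3-fold fall (between 12.6-fold and 16.4-fold). The next 6 fell between 7.11-fold and 19-fold and lay on 4H, 5H, 6H and 7H. This scale places abundant loci above low ones of equal fold, and a locus on 7H with 1 and 12 FPKM, a 12-fold fall, tied with the last of the 8. The most abundant of these, on 5H from 28331639 to 28332411, had 28 FPKM in transgenic leaves against 228 in wild type. The median of the 72 called falls was 3.76-fold (quartiles 2.72 and 6), and 5 exceeded 10-fold.

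The most abundant intronless loci changed in both directions or did not pass. The highest, on 7H from 456582608 to 456584103, had 3417 FPKM in transgenic and 2215 in wild-type leaves and did not pass (adjusted p 0.569). Close to it, the locus from 456608074 to 456609404 on 7H had 2246 and 558 FPKM and rose 4.03-fold (adjusted p 0.00221). On 6H, the locus from 299476401 to 299477277 had 1257 and 2936 FPKM and fell 2.34-fold (adjusted p 0.0105). On 1H, the one from 543160944 to 543162130 had 505 and 2196 FPKM, a 4.35-fold fall (adjusted p 0.00221). The other 2 of the 6 most abundant did not pass, with 1461 and 1412 FPKM on 7H (1.03-fold higher) and 1162 and 964 FPKM on 2H (1.21-fold higher).

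More intronless loci were listed at 0 in wild type than in the transgenic group. There were 289 (19.5%) and 159 (10.7%), against 18.5% and 18% of all transcripts. Weighted to the same levels, the intron-bearing loci had shares of 15.8% and 11.5%. Of the 289 loci 86 were called (29.8%), and of the 159 loci 23 (14.5%). Of the intron-bearing loci at such zeros 9.24% and 5.61% were called, and of all transcripts 2.85% and 0.957%, so that zeros in wild type held the larger share of calls in each set. Because the values are rounded, whether a listed 0 stands for no signal is not known, and no fold is given. The highest values against a wild-type 0 were 75 FPKM on 1H from 529532511 to 529534760, which did not pass (adjusted p 0.689), and 49 FPKM on 7H from 639956811 to 639957827, which did (adjusted p 0.0338). The highest against a transgenic 0 was 83 FPKM on 1H from 454173311 to 454174483, which did not pass (adjusted p 0.110). On 6H, 3 intronless loci between 159972505 and 160511083 were all listed at 0 in wild type, with 13, 19 and 41 FPKM in the transgenic group, and the first and the third of them passed.

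Intronless loci lay mainly towards the chromosome ends, as the intron-bearing ones did. Each chromosome was divided into 10 equal parts from its first to its last locus, and the outermost, parts 1 and 10, held 40.5% of the intronless and 42.9% of the intron-bearing loci. Parts 4 and 5 held 72 (5.19%) and 233 of the loci of these sets. In parts 1 and 10 27.2% of 562 intronless loci were called, and in parts 4 and 5 11.1% of 72, where 7 rose and 1 fell. Intron-bearing loci had 11.3% and 4.72% in the same places. The lower quartile of intronless transcript length was 692.5 nt in parts 1 and 10 and 372.5 nt in parts 4 and 5. By chromosome, the share of intronless loci called ran from 18.7% on 2H to 28.7% on 4H, and was 16.7% of the 96 loci on unplaced sequence. Among intron-bearing loci 2H was the lowest chromosome too, at 7.65%. Intronless transcripts were shorter on 2H and on unplaced sequence, with medians of 803 and 711 nt against 1097 to 1285 nt on the other chromosomes. The shares by place were not matched on length or level. On 3H 51 of 59 intronless calls were higher in the transgenic group (86.4%), against 32 of 56 intron-bearing ones (57.1%). On 1H the counts were 27 of 43 (62.8%) and 38 of 61 (62.3%).

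**Figure D5:**
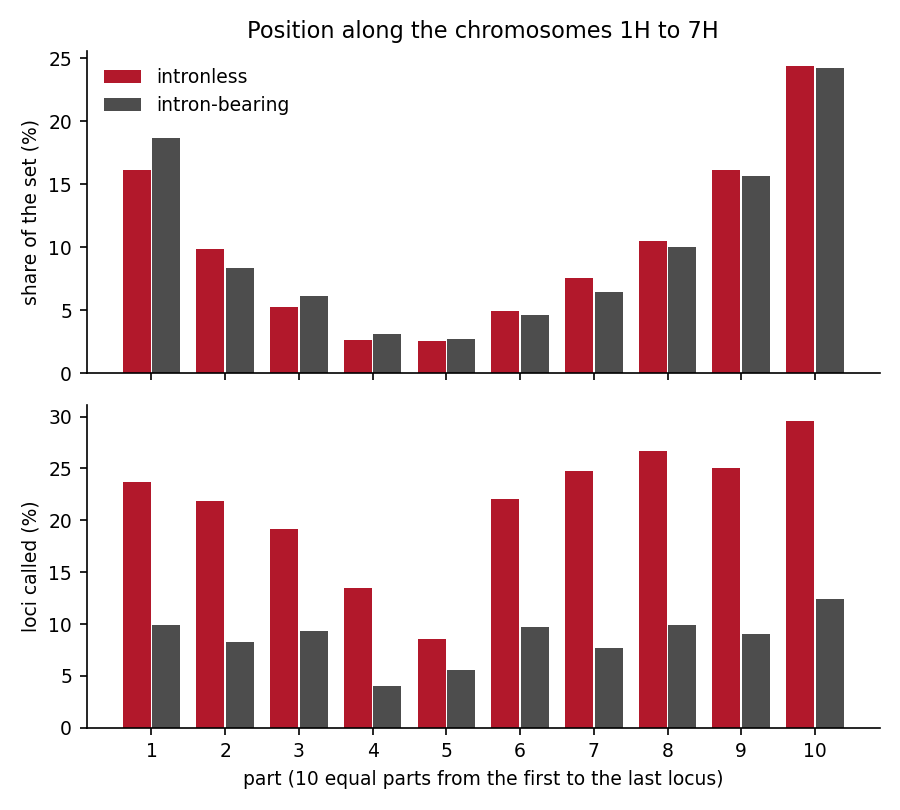
Bars give, for each of 10 equal parts of the stretch from the first to the last locus of chromosomes 1H to 7H, the share of the set that lies there (top) and the percent of loci called (bottom), for intronless (red) and intron-bearing (grey) loci. Both sets are sparse in the middle, and the share of intronless loci called is lowest in part 5, at 8.57%, and highest in part 10, at 29.6%.

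Intronless loci that were direct neighbours were both called about as often as their separate shares give. Of 183 such pairs 12 were called in both members (6.56%), 62 in 1 and 109 in none, while 23.5% of the pairs' loci were called, a share whose square is 5.52%. In the 12 pairs both rose in 6, both fell in 3 and the directions were opposite in 3. On 5H, neighbours 7119 bases apart fell together, the abundant one named above with 28 and 228 FPKM and the one from 28339531 to 28340538 with 19 and 107. On 1H, neighbours 9388 bases apart went opposite ways, with 18 FPKM in transgenic and 46 in wild-type leaves from 532090125 to 532090809 and with 8 and 2 from 532100198 to 532101033. The one stretch with 4 called intronless loci within 500 kb of each other and all in 1 direction was on 5H from 493462229 to 493809187. They were the only intronless loci among 7 loci there and had 135, 325, 129 and 55 FPKM in transgenic leaves against 6, 28, 14 and 2 in wild type, rises of 9.21-fold to 27.5-fold. Their transcripts were of like length, from 910 to 1087 nt. Whether near-identical copies share reads was not tested.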

How the data were processed

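Leaf RNA was sequenced in 2 wild-type and 2 transgenic samples, grouped by their titles. Per the labels' protocols, an mRNA-Seq kit (SMARTER) made the libraries. The submitters' processing notes name STAR, Bowtie2, RSEM and DESeq2 and no versions, and the roles of these tools, any filters and the genome build are not stated. Per the file headers the authors gave each group 1 column of FPKM, in whole numbers, which was handled as a score and never as counts. The p-value of each transcript was used as deposited, and its test is not stated. The planned fit needs columns per sample and was replaced by these p-values. No label gives separate plants, and the spread behind them may be technical.

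With Python 3.11.15, pandas 2.3.3 and scipy 1.17.1, p-values were adjusted over all 51141 transcripts, and loci with an adjusted p under 0.05 were called. Changes are of log2(FPKM + 1), which understates those of low loci, with no filter on low values. Fold bounds assume a rounding error of 0.5 FPKM. Starts were raised by 1 to count from 1. Intron-bearing loci were weighted to the share of intronless loci in 7 level classes (limits 1, 2, 5, 10, 30 and 100 FPKM). Adjustment and weighting were tested on simulated data. Named loci are the 8 largest rises and falls among called loci above 0 in both groups that reached 5 FPKM in one of them, the 3 highest against a 0 each way, and the 6 highest means. Neighbours, the 6H loci and the 5H stretch were picked after their values were seen. The loci and lists were chosen with earlier results of these data known. Alternatives covered the call rule, low values, overlaps, lengths, matching, pseudocounts and centring.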

Additional observations from a re-analysis of the deposited data

How the results depend on the processing

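The excess of calls among intronless loci over level-matched intron-bearing ones kept its direction in all 14 alternatives that could move it, with a ratio of 1.83 to 2.54 against 2.23. Of 109 alternative values of the compared results 92 stayed within 1.5 times the count or within a 95% interval of the value. The interval treats loci as independent, and for values weighted by level it is only approximate. With an unadjusted p under 0.05, a looser threshold by construction, 658 intronless loci (44.4%) and a matched 24.2% of intron-bearing ones were called, and 66.3% and 55.6% of these calls were higher in the transgenic group. Under the authors' class words, which ask for a change of over 4-fold, 145 (9.78%) and a matched 3.85% were called. With 5 FPKM or more in a group the shares were 37.4% and 17.8%. The matched share of intron-bearing loci was 11.98% without overlapping loci, 11.96% with only loci that have an interval of their own, and 13.0% with only first models among those. The last 2 sets were chosen after the data were seen. Centring on transcripts of 10 FPKM or more in both groups moved the matched median of intron-bearing loci from 0 to 0.087. Exchanging the groups, also added later, turned every direction by construction, to a share of 26.6% higher for intronless and 36.8% for intron-bearing calls and a median change of -0.17. The median change of intronless loci was 0 among those above 0 in both groups, as in intron-bearing ones. Pseudocounts and centring turned no named locus, but 61 of 84 values moved beyond the rounding error. The precision is limited by whole-number values, and depth is unknown. Leaving out a replicate was not run because the table has no values per sample. No paired analysis was possible because each group has a single column.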

Other observations

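Among intronless loci listed at 0 in 1 group, the share called rose with the value in the other group up to 9 FPKM, but not beyond. Of 294 loci with 1 FPKM in the other group 47 were called (16.0%), and 33 of them held the smallest p-value in the authors' deposited table. From 2 to 4 FPKM 32 of 95 were called (33.7%), and from 5 to 9 FPKM 17 of 27 (63.0%). At 10 FPKM or more the share was lower again, with 13 of 32 (40.6%), and 28 of these 32 were listed at 0 in wild type. Loci with 75, 44 and 37 FPKM in transgenic leaves and a 0 in wild type did not pass, at adjusted p-values of 0.689, 0.485 and 0.197. Intron-bearing loci had 4.49% called at 1 FPKM, 17.2% from 2 to 4 FPKM, 22.9% from 5 to 9 FPKM and 46.2% at 10 FPKM or more, a rise in each class. Sample values are not analysed here, and whether a single sample carried the signal of these loci was not tested.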
